A study of Mus musculus with 4 samples.

Results

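Naive T cells with Lef1 or Ccr7 transcripts were picked from the bone marrow of myeloma-bearing mice by raw counts of unique molecular identifiers (UMIs, each standing for 1 captured RNA molecule). A cell was taken when its UMIs of Cd3d, Cd3e and Cd3g summed to at least 2, when it had at least 1 UMI of Lef1 or Ccr7, when it had none of Foxp3, Ccl5 and Klrc1, and when its UMIs of the neutrophil genes Mmp8, Mmp9 and Cxcr2 summed to at most 1. These genes chose the cells, so their values are a description and no test of them is reported. The gate held 230 of 39743 cells that passed the quality filter (0.579%). Cells that met both the Cd3 and the neutrophil condition are called T cells here, and the gate held 17.95% of these 1281 cells. The gated cells fell unevenly over the mice: 4 cells in vehicle replicate 1, 19 in vehicle replicate 2, 134 in PM replicate 1 and 73 in PM replicate 2.

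The mice carried the 5TMM model of multiple myeloma, in which 5TGM1-luc myeloma cells are injected into the tail vein of C57BL/KawRij mice and grow in the marrow. Mice were 6 weeks old at injection and were dosed about 3 weeks later with vehicle or with 10 mg/kg purinostat mesylate (PM), an inhibitor of class I and class IIb histone deacetylases. Marrow was taken 24 h after the dose, red blood cells were lysed, and each mouse gave 1 droplet library counted at the 3′ end of the RNA, with 2 mice per group. The libraries held 86052982, 69828595, 109447030 and 74388936 UMIs in all, in the order vehicle 1, vehicle 2, PM 1 and PM 2, and 9261, 7826, 13387 and 9269 kept cells. All groups carried the tumour, so no tumour-free marrow was part of the comparison, and a single dose and a single time were sampled. The study speaks of independent experiments for its vehicle and PM samples, and which mice shared an experiment is not given in the sources used here, so a difference between experiments cannot be told apart from the spread between mice.

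Naive T cells are mature T cells that have left the thymus and have not yet met their antigen. They recirculate between blood, lymph nodes, spleen and marrow, guided by the chemokine receptor Ccr7 and the sphingosine receptor S1pr1. Their resting state is held by transcription factors such as Lef1, Tcf7, Klf2, Foxo1 and Bach2 and by survival signals through the interleukin 7 receptor. On activation they lose much of this programme and gain effector genes such as Ccl5 and the natural killer receptors, which are the genes that the gate kept out.

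The depth of the gated cells set what could be read from them. Their median was 3499 UMIs and 1601 genes per cell, and the medians of the 4 mice lay between 3169 and 4274 UMIs. Summed over cells, the naive T cells gave 20707 and 87033 UMIs in the vehicle mice against 523776 and 297140 in the PM mice, so that the vehicle side of every expression comparison rested on far fewer molecules. Levels below are CPM, the counts of a gene scaled to 1000000 of the UMIs summed over the gated cells of 1 mouse. The median share of mitochondrial UMIs in the naive T cells was 6.16%, 5.73%, 6.05% and 6.10% in the 4 mice, above the 1.02% to 1.69% of all kept cells and close to the 5.30% to 6.29% of the T cells outside the gate. Between 18 and 39 cell barcodes were shared by any pair of libraries, and no barcode was a naive T cell in more than 1 library.

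Tcf7 and Igfbp4 went with the label in 3 of the 4 mice, but Tcf7 does not part naive from memory T cells. Genes of memory and regulatory T cells were also present in some gated cells, most often in the Cd4 cells, as given below. Tcf7, the partner of Lef1 in naive and memory T cells and no part of the gate, was at 435 and 781 CPM in the vehicle mice against 647 and 794 CPM in the PM mice, against 340 CPM in the pooled T cells outside the gate. It had a UMI in 203 of the 230 cells (88.3%), and it was at 1.05 CPM in the pooled mature B cells and 0.445 CPM in the pooled mature neutrophils. Igfbp4, a binding protein of insulin-like growth factors that is often seen in naive T cells, was at 0 and 91.9 CPM in the vehicle mice against 252 and 219 CPM in the PM mice. Igfbp4 was found in 89 cells (38.7%) and was at 29.8 CPM in the other T cells, but it was also at 87.9 CPM in mature B cells and 132 CPM in all kept cells, so it did not mark T cells alone here.

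Among the genes that chose the cells, Lef1 stood at 435 and 517 CPM in the vehicle mice against 460 and 602 CPM in the PM mice. Ccr7 stood at 96.6 and 299 CPM against 307 and 289 CPM. Cd3e, a signalling chain of the T cell receptor, was almost level over the mice at 386, 425, 388 and 394 CPM. Lef1 was detected in 202 of the 230 cells and Ccr7 in 140, and 112 cells had both. Of the remainder, 90 had Lef1 only and 28 had Ccr7 only.

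Other genes of naive T cells, which the gate did not use, were higher inside it than in the T cells outside it, as a description of the gated cells. Il6ra, the interleukin 6 receptor, was at 242 CPM against 88.3 CPM, S1pr1 at 240 against 109 CPM, and Slamf6, a receptor of the SLAM family, at 252 against 116 CPM over the pooled cells. Cd8b1, the beta chain of the Cd8 coreceptor, was at 426 against 172 CPM, and Themis, a signalling adaptor needed in T cell development, at 228 against 112 CPM. Klrk1, which encodes the activating receptor NKG2D, went the other way: 1 PM mouse had 3.82 CPM and the other 3 mice had none, against 328 CPM in the other T cells.

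The 4 gated cells of vehicle replicate 1 bore out the label poorly. In that mouse 3 cells had Lef1 only, 1 had Ccr7 only and none had both. No cell of the 4 had Igfbp4 and 2 had Tcf7, while all 4 had Cd44, an adhesion receptor that is raised on antigen-experienced T cells. Cd44 was also found in 26.3% of the gated cells of vehicle replicate 2, 29.9% of those of PM replicate 1 and 32.9% of those of PM replicate 2. The comparisons below include vehicle replicate 1 unless it is said to be left out.

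**Figure D1:**
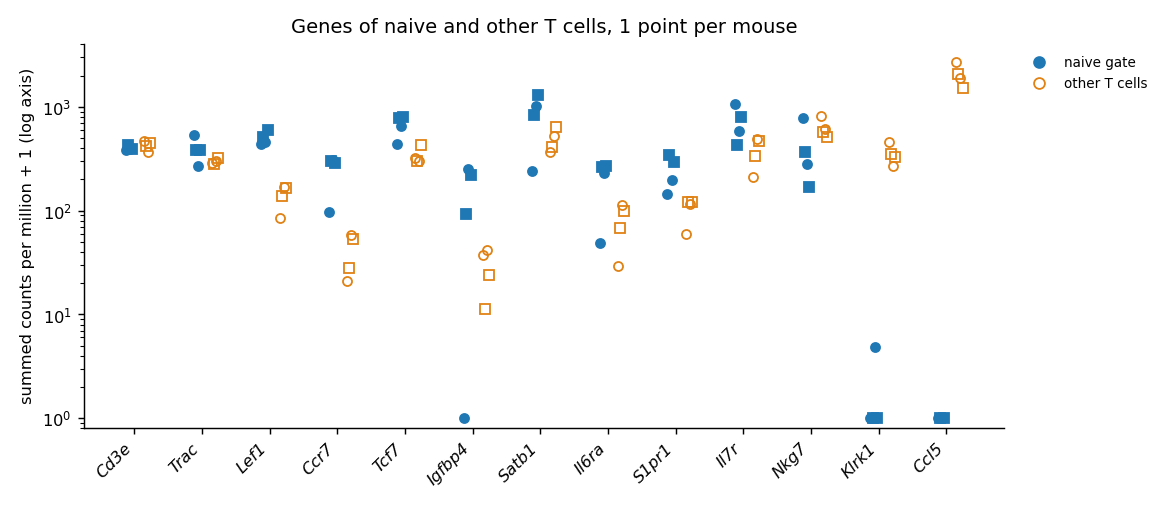
Level of each gene, as CPM + 1 on a log axis, in the naive T cells (filled) and in the T cells outside the gate (open); each point is 1 mouse, drawn from left to right as vehicle 1, vehicle 2, PM 1 and PM 2, with circles for replicate 1 and squares for replicate 2. Tcf7 lay between 435 and 794 CPM in the naive T cells of all 4 mice, and points on the floor of the axis, such as Igfbp4 in vehicle replicate 1, had no UMI.

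Cells just inside and just outside the thresholds differed in Tcf7, whereas Igfbp4 was lower outside only on the Lef1 and Ccr7 side. The 34 gated cells with exactly 2 Cd3 UMIs had a pooled Tcf7 level of 723 CPM and the 196 with 3 or more had 699 CPM. The 41 cells with a single Cd3 UMI that met every other condition had 352 CPM. Igfbp4 went the other way at this threshold, at 260 CPM in these 41 cells against 235 and 219 CPM in the gated cells. On the Lef1 and Ccr7 side, the 92 cells with neither transcript that met every other condition had 385 CPM of Tcf7 and 64.9 CPM of Igfbp4. The 55 gated cells with 1 UMI had 463 and 163 CPM, and the 175 with 2 or more had 769 and 237 CPM.

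By their coreceptors, 111 of the gated cells were Cd8a cells, 44 were Cd4 cells, 1 had both transcripts and 74 had neither. A missing coreceptor transcript in a shallow cell does not show that the cell lacks the protein: 25 of the 74 had Cd8b1, which left 49 cells without any of the 3 transcripts. Of the 74, 9 had Trdc, the constant region of the delta chain of the gamma delta T cell receptor, against 1 of the 111 Cd8a cells and 0 of the 44 Cd4 cells. The Cd4 cells numbered 1, 3, 26 and 14 in vehicle 1, vehicle 2, PM 1 and PM 2. The Cd8a cells numbered 1, 14, 52 and 44.

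The Cd4 and Cd8a cells differed in other genes, described here without a test because Cd4 and Cd8a divided them. Genes that are better known from memory and regulatory Cd4 T cells were seen more often in the Cd4 cells. S100a4, a calcium-binding protein of memory T cells, was found in 16 of 44 (36.4%) against 7 of 111 (6.31%), and Maf, a transcription factor of differentiated Cd4 cells, in 14 of 44 against 2 of 111. Itgb1, the integrin beta 1 chain, was found in 19 of 44 against 26 of 111, and Ikzf2, the Helios transcription factor that regulatory T cells express, in 16 of 44 against 10 of 111. Ctla4, an inhibitory receptor, was found in 11 of 44 against 4 of 111, although Foxp3 was at 0 in every gated cell by the rule. Nkg7, a granule membrane protein of cytotoxic cells, had the opposite distribution, with a UMI in 68 of 111 Cd8a cells and 3 of 44 Cd4 cells.

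Naive T cells made up a larger share of the marrow in both PM mice than in either vehicle mouse. They were 0.0432% of the kept cells of vehicle replicate 1 (4 of 9261, exact 95% interval 0.0118% to 0.111%) and 0.243% of vehicle replicate 2 (19 of 7826, 0.146% to 0.379%). They were 1.00% of PM replicate 1 (134 of 13387, 0.839% to 1.18%) and 0.788% of PM replicate 2 (73 of 9269, 0.618% to 0.989%). The groups did not overlap. The means were 0.143% ± 0.141 (SD, n = 2) and 0.894% ± 0.151 (SD, n = 2), a ratio of 6.25 and a difference of 0.751 percentage points. The size of the ratio rested on the vehicle mice: it was 3.68 without vehicle replicate 1 and 20.7 without vehicle replicate 2, whose removal leaves only the mouse with 4 gated cells.

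The exact two-sided permutation test of this difference gave p = 0.333, the smallest value that 2 mice against 2 can give, and p = 0.417 after Benjamini-Hochberg adjustment over the 5 shares compared. This design cannot reach 0.05 by that test. With edgeR's quasi-likelihood test on the cell numbers of 8 classes, the log2 ratio of the naive T cells was 2.67 and the adjusted p was 0.125. Intervals on shares cover counting error only. The share is of captured cells, and the number of cells in the marrow was not measured.

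**Figure D2:**
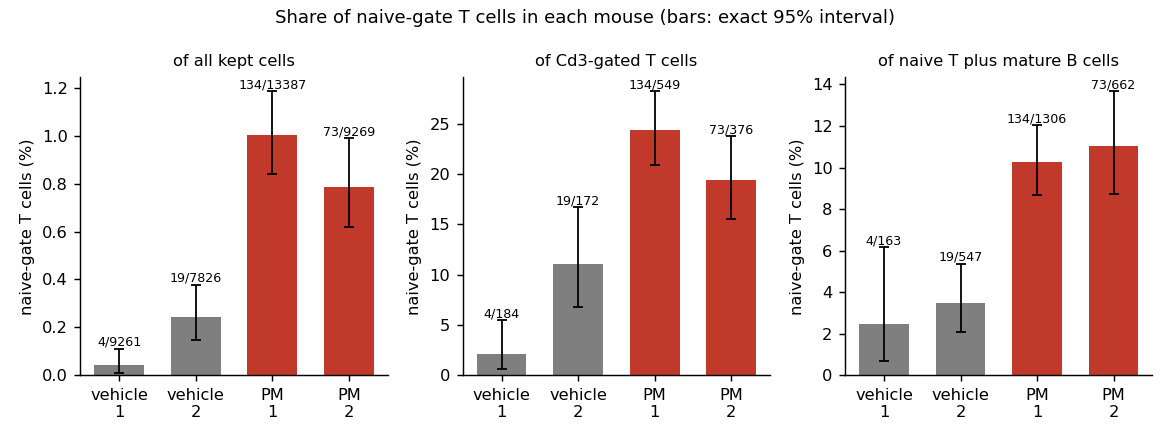
Naive T cells as a percentage of the kept cells (left), of the T cells (middle) and of naive T and mature B cells together (right) in each mouse; bars are single mice, whiskers are exact 95% binomial intervals and the fractions are cell numbers. In all 3 panels both PM mice lay above both vehicle mice, for kept cells at 1.00% and 0.788% above 0.0432% and 0.243%.

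The gate could also be read against the T cells alone, which removes changes in the other marrow cells. T cells, by the Cd3 and neutrophil conditions together, were 1.99% and 2.20% of the kept cells in the vehicle mice against 4.10% and 4.06% in the PM mice. By the Cd3 condition alone the values were 2.47% and 2.88% against 5.19% and 4.66%. Of these T cells, the naive cells were 2.17% and 11.05% in the vehicle mice against 24.4% and 19.4% in the PM mice (6.61% ± 6.27 against 21.9% ± 3.53, SD, n = 2 each). The ratio was 3.31 and the exact permutation p was again 0.333. The ratio was 1.98 without vehicle replicate 1 and 10.1 without vehicle replicate 2. T cells outside the naive gate were 1.94% and 1.96% of the kept cells in the vehicle mice against 3.10% and 3.27% in the PM mice, a ratio of 1.63, so they too took a larger share in both PM mice.

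The other T cell classes showed other patterns in their share of T cells. T cells with Klrc1, an inhibitory natural killer receptor, were 47.3% and 40.1% of the T cells in the vehicle mice against 29.1% and 33.5% in the PM mice. T cells with Ccl5, a chemokine of effector and memory cells, and no Klrc1 or Foxp3 were 42.4% and 35.5% against 34.2% and 33.0%. Foxp3 cells, the regulatory T cells, were 5.98% and 5.81% against 4.92% and 4.79%. The T cells that met none of these conditions were 2.17% and 7.56% against 7.29% and 9.31%, and here the groups overlapped. The shares of T cells sum to the whole, so a larger naive share lowers the others. Of all kept cells, the Klrc1 class was 0.939% and 0.882% in the vehicle mice against 1.20% and 1.36% in the PM mice. The Ccl5 class was 0.842% and 0.779% against 1.40% and 1.34%, and the Foxp3 class 0.119% and 0.128% against 0.202% and 0.194%. Each of these 3 classes was thus a larger share of the kept cells in both PM mice, with log2 ratios of 0.49, 0.76 and 0.68 by edgeR's test on the cell numbers and adjusted p of 0.125, 0.0579 and 0.125.

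**Figure D3:**
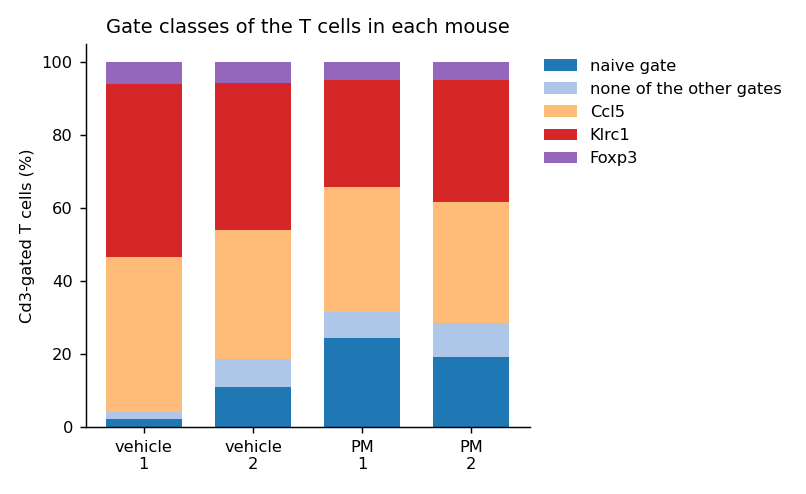
Stacked bars of the T cell classes of each mouse, as a percentage of its T cells: the naive gate, cells in none of the other gates, and cells with Ccl5, Klrc1 or Foxp3. The naive class was larger in both PM mice, at 24.4% and 19.4% against 2.17% and 11.05%, while the Klrc1 and Ccl5 classes were smaller shares of T cells and, beyond what is drawn, larger shares of all kept cells.

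Lef1 or Ccr7 transcripts were frequent in T cells that the gate refused, and most of these cells had Ccl5. T cells with a UMI of Lef1 or Ccr7 numbered 52, 87, 330 and 207 in vehicle 1, vehicle 2, PM 1 and PM 2, or 28.3%, 50.6%, 60.1% and 55.1% of T cells. Of these, 45, 63, 182 and 129 had Ccl5. Ccl5 was not a general background of these libraries, since it was found in 0.170% to 1.26% of mature B cells and in 0.296% to 0.654% of mature neutrophils, against 63.2% to 89.1% of T cells. Without the condition on Ccl5, an alternative added after the data had been seen, the gate took 0.259% and 0.601% of the kept cells in the vehicle mice against 1.82% and 1.47% in the PM mice. That wider gate gave 13.04% and 27.3% of the T cells in the vehicle mice against 44.3% and 36.2% in the PM mice, again without overlap.

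A narrower gate had the same order. Cells with both Lef1 and Ccr7, also added after the data had been seen, were 0 of 9261 in vehicle replicate 1, for which 3 counts of the total give a limit of 0.0324% and the exact 95% interval one of 0.0398%, and 0.102% in vehicle replicate 2. They were 0.538% and 0.345% of the kept cells in the PM mice. When every cell was thinned to 2000 UMIs before gating, the naive share of kept cells was 0.0472% and 0.179% in the vehicle mice against 0.755% and 0.658% in the PM mice. Thinning left out 15 and 5 naive T cells of the PM mice and none of the vehicle mice as too shallow. Of the cells with at least 5 UMIs of Mmp8, Mmp9 and Cxcr2, neutrophils that should lack these genes, counted with or without Cd3, 0.243%, 0.634%, 1.73% and 0.570% had a UMI of Lef1 or Ccr7 in vehicle 1, vehicle 2, PM 1 and PM 2. At least 2 UMIs of Cd3 were found in 0.616%, 1.12%, 1.49% and 0.760% of them. Both values were highest in PM replicate 1, the mouse with the largest naive share, and their part in that share was not tested.

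Mature B cells, the other recirculating lymphocytes in the marrow, were 1.72% and 6.75% of the kept cells in the vehicle mice against 8.75% and 6.35% in the PM mice, so their groups overlapped. Vehicle replicate 1 was low in both kinds of lymphocyte. Set against the mature B cells, naive T cells were 2.45% and 3.47% of both kinds together in the vehicle mice against 10.3% and 11.03% in the PM mice. This share also did not overlap between the groups, with an exact permutation p of 0.333. The part that blood in the marrow sample or the yield of each library had in these shares was not tested.

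Divided by coreceptor, the naive Cd4 cells were 0.543% and 1.74% of the T cells in the vehicle mice against 4.74% and 3.72% in the PM mice, a ratio of means of 3.70 that was 2.42 without vehicle replicate 1 and 7.78 without vehicle replicate 2. The naive Cd8a cells were 0.543% and 8.14% against 9.47% and 11.7%, a ratio of 2.44 that was 1.30 and 19.5 without these mice in turn. In both cases each PM mouse was above each vehicle mouse, and the exact permutation p was 0.333 for each. With cells thinned to 2000 UMIs, however, the naive Cd8a share was 0% and 5.97% in the vehicle mice against 5.04% and 10.8% in the PM mice, so that the groups overlapped, whereas the naive Cd4 share was 0.730% and 0.746% against 3.02% and 2.23%. The naive Cd8a share of T cells in vehicle replicate 2 lay close to that of PM replicate 1. The difference of 6.25 percentage points was reduced to 2.45 when vehicle replicate 1 was left out and was 10.0 when vehicle replicate 2 was left out. Among the naive cells themselves, Cd8a cells were 25% and 73.7% in the vehicle mice against 38.8% and 60.3% in the PM mice. These groups overlapped, with a difference of 0.198 percentage points and an exact permutation p of 1, and the first value is 1 of 4 cells with an exact 95% interval from 0.631% to 80.6%.

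RNA of other cell types was present in the naive T cells and was uneven over the mice. The 13 genes of the neutrophil check list summed to 1932, 1459, 15083 and 2561 CPM in vehicle 1, vehicle 2, PM 1 and PM 2. The most abundant of them was S100a9, a calcium-binding protein of neutrophils, at 2627 CPM over all the naive T cells, and each of the 13 was below its level in all kept cells. In UMIs the list summed to 40, 127, 7900 and 761. In PM replicate 1 a single cell held 4077 of the 7900 UMIs (51.6%) and 5 cells held 78.2%. The medians per cell were 9, 6, 13 and 9 UMIs. Cells with 20 or more such UMIs numbered 0, 1, 25 and 4. Lower amounts were widespread: more than 5 UMIs of S100a8 and S100a9 together were found in 2 of 4, 6 of 19, 104 of 134 (77.6%) and 36 of 73 naive cells. The same held for 43.9%, 28.1%, 82.4% and 48.8% of the other T cells and for 32.7%, 23.9%, 71.8% and 33.8% of the mature B cells, with PM replicate 1 the highest in each.

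**Figure D4:**
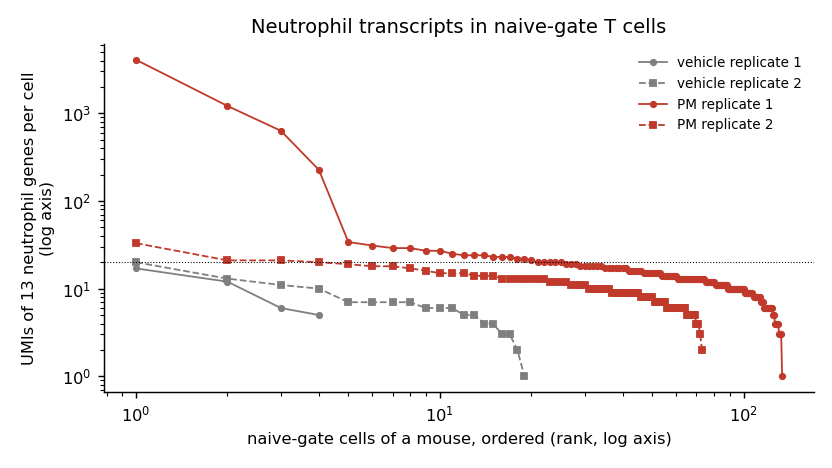
UMIs of the 13 genes of the neutrophil check list per naive T cell (log axis) against the rank of the cell within its mouse (log axis); each point is 1 cell and the dotted line is at 20 UMIs. PM replicate 1 had 25 cells on or above the line, and its first cell had 4077 UMIs.

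Other lists were lower. The erythroid list was at 1685 UMIs in PM replicate 1, of which 1511 (89.7%) came from 1 cell, with Hba-a2, a globin gene, as the most abundant member at 639 CPM. The B cell list summed to 241, 333, 852 and 1228 CPM, led by Ighm, the immunoglobulin mu chain, at 394 CPM, and 1 cell held 164 of the 365 UMIs in PM replicate 2. Defining genes of several other cell types had no UMI in any of the 230 cells. These were Rag1, Rag2 and Ptcra of thymocytes, Ncr1, Gzma and Klra4 of natural killer cells, Tnfrsf17 of plasma cells with the light chain gene Igkv10-96, C1qb and Fcgr1 of macrophages, Xcr1 of dendritic cells, and Tcrg-V6 and Trdv4 of gamma delta T cells. Other members of the same lists were present. The most abundant was Ly6c2 at 658 CPM in the monocyte and macrophage list (2 of 7 at 0), Bst2 at 110 CPM in the dendritic list (1 of 5 at 0) and Tyrobp at 85.1 CPM in the natural killer list (3 of 6 at 0). In the gamma delta list (2 of 6 at 0) it was Trdc at 34.5 CPM, and in the regulatory T cell list (1 of 4 at 0, Foxp3 by the rule) it was Ikzf2 at 220 CPM. Doublet calling marked 3 of the 134 naive T cells of PM replicate 1 and none in the other mice. Without the cells that had 20 or more neutrophil UMIs, an alternative added after the data had been seen, the naive cells were again a larger share of T cells in both PM mice, by a mean of 15.7 percentage points against 15.3 with them. Without every cell that had more than 5 UMIs of S100a8 and S100a9, also added after the data had been seen, 2, 13, 30 and 37 naive cells remained in the 4 mice. They were 1.94%, 10.6%, 29.1% and 19.3% of the remaining T cells, again without overlap, with a mean difference of 17.9 percentage points.

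Expression in the naive T cells of PM and vehicle mice was compared on UMIs summed per mouse with edgeR's quasi-likelihood test, which models counts and pools the spread over genes. Calls needed an adjusted p (Benjamini-Hochberg, over all genes tested) below 0.05 and a log2 fold change of more than 0.5 in size. Of 3577 genes tested, 7 of them genes of the gate or the coreceptors, 0 were called in either direction (0%). At an unadjusted p under 0.05, 140 genes were higher and 87 lower in PM, and DESeq2 also called 0. Where leaving out a mouse moved this count, the vehicle mice mattered most. The calls were 12 higher and 19 lower when vehicle replicate 1 was left out, 82 and 23 for vehicle replicate 2, 0 and 1 for PM replicate 1, and 13 and 1 for PM replicate 2.

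Of the genes left when T cell receptor, immunoglobulin, mitochondrial and hemoglobin genes were set aside, the 3 with the smallest p did not pass the test. Igkc, an immunoglobulin gene, had a smaller p than the last of them and was not called either. S100a10, which forms a calcium-binding complex with annexin A2, was at 2077 and 747 CPM in the vehicle mice against 286 and 175 CPM in the PM mice. Its groups did not overlap, and the log2 fold change was -2.28 with a standard error (SE) of 0.44 and an edgeR adjusted p of 0.187. It was detected in 3 of 4 and 14 of 19 cells of the vehicle mice against 63 of 134 and 33 of 73 cells of the PM mice, and 33 of the 43 UMIs in vehicle replicate 1 and 28 of the 65 in vehicle replicate 2 were in 1 cell each. Mki67, a marker of cycling cells, was at 145 and 276 CPM against 53.5 and 10.1 CPM, with a log2 fold change of -2.62 (SE 0.60, edgeR adjusted p = 0.395), and 17 of the 24 UMIs of vehicle replicate 2 were in 1 cell. Cd74, the invariant chain of MHC class II, had 0 and 3 UMIs in the vehicle mice against 114 and 73 in the PM mice, with an edgeR adjusted p of 0.187. It was confined to 13 and 7 cells of the PM mice, and 46 of the 73 UMIs of PM replicate 2 were in 1 cell. Cd74 is a gene of the B cell check list, which was itself higher in both PM mice, and the part of B cell RNA in its level was not tested.

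None of the genes of the naive programme was called. Of the 30 genes of homing and quiescence, 24 were tested, 17 had a log2 fold change above 0 and the median was 0.32, against 0.06 for all tested genes. The PM mice lay above the vehicle mice without overlap for 9 of the 24 and below for 2, where 18.9% of the 3570 other genes tested, those of the gate and the coreceptors left out, were higher without overlap and 21.2% lower. Satb1, a chromatin organiser of T cells, was at 241 and 839 CPM against 1016 and 1296 CPM (log2 fold change 1.02, SE 0.48, edgeR adjusted p = 0.774). Klf2, which drives S1pr1, was at 386 and 885 CPM against 577 and 892 CPM. For both genes vehicle replicate 1 was the lowest mouse. Bcl2, the survival factor kept up by interleukin 7, was at 435 and 494 CPM against 811 and 1134 CPM (1.17, SE 0.40, edgeR adjusted p = 0.685).

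The interleukin 7 and common gamma chain list as a whole had 9 of 16 tested genes above 0 and a median of 0.13. Il7r, the interleukin 7 receptor, was at 1062 and 425 CPM against 580 and 804 CPM, with the groups overlapping. T cell receptor and proximal signalling genes had 7 of 25 tested above 0, with a median of -0.09. Trac, the alpha chain constant region, was at 531 and 379 CPM against 267 and 380 CPM, and Lck, the first kinase of the pathway, at 290 and 402 CPM against 273 and 360 CPM. No member of either list was called.

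The list that departed furthest from all genes downward, apart from the effector list below, held actin, calcium-binding and Crip1-type genes. All 23 were tested, 0 had a log2 fold change above 0, the median was -0.73, and in 15 of 23 the PM mice lay below the vehicle mice without overlap, beside the 21.2% of all genes. None was called. Actb, beta actin, was at 10673 and 6882 CPM against 6192 and 5045 CPM. Crip1, a small LIM-domain protein, was at 1545 and 1804 CPM against 953 and 676 CPM, and Vim, the filament protein vimentin, at 1207 and 712 CPM against 370 and 168 CPM (-1.56, SE 0.42, edgeR adjusted p = 0.469). Vim was concentrated too, with 16 of 25 UMIs in vehicle replicate 1 and 38 of 62 in vehicle replicate 2 in 1 cell each. Without vehicle replicate 1 the median was -0.52, and 4 of the 23 (Crip1, S100a10, S100a4 and Vim) were called lower. The calls over all genes in that setting are given above, and the number of genes tested in it is given below with the cell cycle genes.

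Cytotoxic and effector genes had 1 of 13 tested above 0 and a median of -0.95, with 6 below and 0 above without overlap, beside 21.2% and 18.9% of all genes. Nkg7 was at 773 and 368 CPM against 281 and 168 CPM (-0.99, SE 0.40, edgeR adjusted p = 0.709). The one gene above 0 was Ly6c2, a surface antigen of memory Cd8 T cells and of monocytes, at 531 and 103 CPM against 848 and 495 CPM (1.71, SE 0.55, edgeR adjusted p = 0.685), where all 11 UMIs of vehicle replicate 1 came from 1 cell and 139 of the 444 of PM replicate 1 from another. Activation and immediate early genes had 4 of 18 above 0, a median of -0.54, and 9 below without overlap against 1 above, beside the same 21.2% and 18.9%. Junb, an AP-1 factor, was at 1400 and 1138 CPM against 315 and 1040 CPM, and Nfkbia, the NF-kB inhibitor, at 1062 and 264 CPM against 136 and 172 CPM. Checkpoint and costimulatory receptors had 2 of 7 above 0, with a median of -0.53, and migration and adhesion receptors 4 of 20, with a median of -0.27. No member of these lists was called. With vehicle replicate 1 left out, the effector list had 4 of 15 above 0 and a median of -0.38, with Ly6c2 called higher and S100a4 called lower, beside the calls over all genes given above for that setting. The activation list then had 9 of 25 above 0 and a median of -0.30, the migration list 11 of 24 and -0.09, and the checkpoint list 3 of 9 and -0.54.

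The interferon response list summed to 6906 and 3240 CPM in the vehicle mice against 4735 and 5977 CPM in the PM mice, so the groups overlapped. Of its 30 genes tested, 24 had a log2 fold change above 0, the median was 0.56, and 7 of 30 lay above the vehicle mice without overlap, close to the 18.9% of all genes, and 0 below, beside 21.2%. None was called. Bst2, or tetherin, was at 48.3 and 68.9 CPM against 118 and 111 CPM. It is also the most abundant member of the dendritic check list, which summed to 48.3 and 80.4 CPM against 227 and 114 CPM. The part of dendritic cell RNA in its level was not tested. Not all members followed: Ifi27l2a was at 676 and 161 CPM against 317 and 316 CPM, with vehicle replicate 1 as the highest mouse. Without vehicle replicate 1, 43 of 46 tested genes were above 0, the median was 0.94 and 1 gene, the surface antigen Ly6a, was called higher. The calls over all genes in that setting are given above. The median of all genes lay between -0.01 and 0.51 over the alternatives compared below, of which this setting is 1. MHC class I and peptide loading genes had 12 of 21 above 0 and a median of 0.10, and B2m, the class I light chain, was nearly level at 2849, 2930, 2652 and 3039 CPM. The class I list had 14 of 21 above 0 and a median of 0.25 without vehicle replicate 1.

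**Figure D5:**
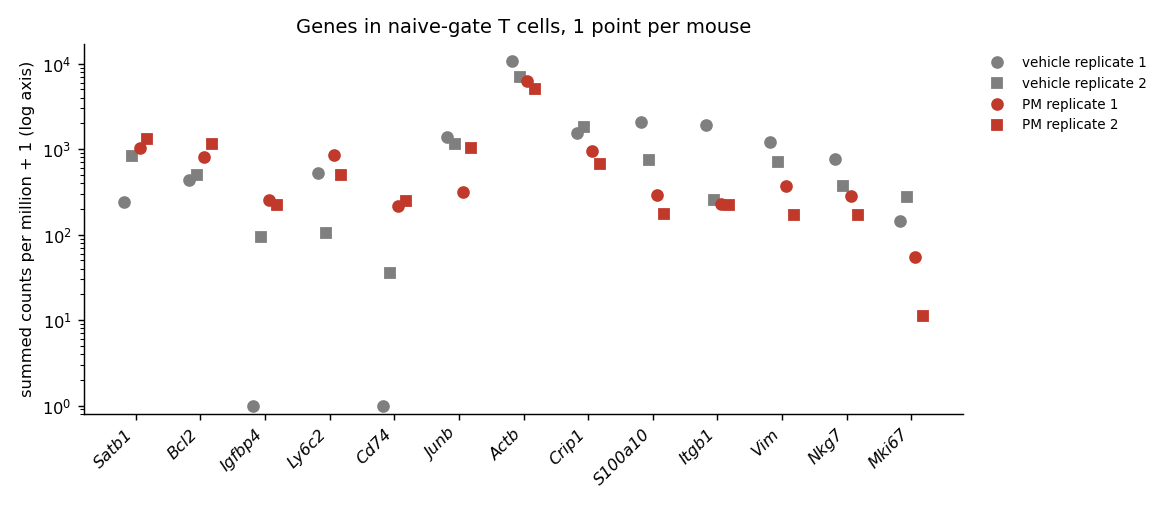
Level of selected genes in the naive T cells, as CPM + 1 on a log axis; each point is 1 mouse, grey for vehicle and red for PM, with circles for replicate 1 and squares for replicate 2. S100a10 was at 2077 and 747 CPM in the vehicle mice and lower, at 286 and 175 CPM, in the PM mice, and no gene passed the test; points on the floor of the axis had no UMI.

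Heat shock genes had 12 of 12 tested above 0, with a median of 0.57 and 5 above without overlap, beside 18.9% of all genes. Hsp90ab1, a cytosolic chaperone, was at 966 and 1103 CPM against 1470 and 1434 CPM, and Hspa8, the constitutive Hsp70, at 676 and 1034 CPM against 1165 and 1467 CPM. Cytosolic ribosomal protein genes had 74 of 78 above 0 and a median of 0.27, but without vehicle replicate 1 only 32 of 78 were above 0 and the median was -0.04. Cell cycle genes had 5 of 19 above 0 and a median of -0.60. Without vehicle replicate 1 their median was -1.06, with 7 of 23 called lower, where 19 of 6189 genes in all were called lower. Anergy genes (median 0.01, 4 of 8 above 0), glycolysis (0.02, 6 of 11), chromatin corepressors and acetyltransferases (-0.01, 12 of 26), glucocorticoid-responsive genes (0.00, 7 of 13) and clock genes (0.17, 3 of 3) had medians near that of all genes. No member of these lists was called.

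The medians of the lists were compared over 6 alternatives: each mouse left out in turn, and the naive cells with 20 or more neutrophil UMIs, or with more than 5 UMIs of S100a8 and S100a9, left out. The median of all genes ranged from -0.01 to 0.51, the highest without vehicle replicate 2, where 4 cells made up the vehicle side. Of the lists, 7 stayed on 1 side of 0. These were homing and quiescence (0.14 to 2.01), interferon response (0.17 to 0.94), heat shock (0.53 to 0.84), the actin group (-0.95 to -0.36), effector genes (-1.22 to -0.38), activation genes (-0.74 to -0.01) and migration receptors (-0.45 to -0.09).

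Other lists crossed 0. The cell cycle median turned to 0.95 without vehicle replicate 2 and to 0.49, over 5 genes, without the cells that had more than 5 UMIs of S100a8 and S100a9. The checkpoint median turned to 0.16, over 4 genes, in the latter case. The anergy list went from -0.62 without PM replicate 1 to 0.51 without vehicle replicate 2, and the clock list, of which 2 genes could then be tested, was at -0.69 without PM replicate 1 and at -1.57 without PM replicate 2. Common gamma chain signalling ranged from -0.44 to 0.12, T cell receptor signalling from -0.19 to 0.28, MHC class I from -0.10 to 0.25, glycolysis from -0.14 to 0.70, corepressors from -0.07 to 0.77, glucocorticoid-responsive genes from -0.29 to 0.46 and the deacetylase list from -0.29 to 1.24.

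The deacetylases that the compound inhibits were sparsely counted. Hdac1 had a UMI in 90 of the 230 cells and was at 48.3 and 126 CPM in the vehicle mice against 155 and 108 CPM in the PM mice (log2 fold change 0.39, SE 0.51, edgeR adjusted p = 0.933). Hdac2 was at 0 and 138 CPM against 59.2 and 104 CPM. Hdac3 was found in 26 cells, Hdac8 in 7, Hdac10 in 6 and Hdac6 in 5, too few to pass the filter on low counts. The list of deacetylases and H1f0 had 4 of 13 genes tested, 1 of them above 0, a median of -0.20 and no call. H1f0, the linker histone often raised by deacetylase inhibitors, was found in 17 cells.

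Of the T cell genes that the study names for this experiment, few were detectable in naive cells. Pdcd1, the inhibitory receptor PD-1, had a UMI in 9 cells, Prdm1, the factor Blimp-1, in 6, Tnfrsf9, the costimulatory receptor 4-1BB, in 6, Isg15 in 6 and Gzmk, a granzyme, in 2. Rnf128, a ubiquitin ligase of anergy, was found in 3 cells and Prf1, perforin, in 27. Itch and Nedd4, ubiquitin ligases of the same family, were found in 84 and 41 cells. Itch was at 241 and 149 CPM against 145 and 97.6 CPM (-0.35, SE 0.45, edgeR adjusted p = 0.933), and Ctla4 at 145 and 91.9 CPM against 22.9 and 90.9 CPM (-0.95, SE 0.75, edgeR adjusted p = 0.876). Neither was called.

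In the naive Cd8a cells, 0 of 2568 genes tested were called (0%), with 80 higher and 74 lower at an unadjusted p under 0.05, and DESeq2 also called 0. S100a10 was at 3253 and 670.3 CPM in the vehicle mice against 171 and 114 CPM in the PM mice, with a log2 fold change of -3.19 (SE 0.59, edgeR adjusted p = 0.0754). The first value is 33 UMIs of the only Cd8a cell of vehicle replicate 1. Ly6c2 had 0 and 9 UMIs in the vehicle mice against 302 and 127 in the PM mice, with a log2 fold change of 3.38 (SE 0.67, edgeR adjusted p = 0.0754). It was detected in 6 of 14 cells of vehicle replicate 2, in 29 of 52 of PM replicate 1, where 1 cell held 139 of the UMIs, and in 24 of 44 of PM replicate 2. Ly6c2 is itself a gene of the monocyte and macrophage check list. In the Cd8a cells that list summed to 0 and 178 CPM in the vehicle mice against 1511 and 666 CPM in the PM mice. The part of monocyte RNA in the level of Ly6c2 was not tested. Mki67 was at 197 and 315 CPM against 37.5 and 5.20 CPM, with a log2 fold change of -3.46 (SE 0.70, edgeR adjusted p = 0.0754).

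The number of calls in the Cd8a cells depended on the mice and settings. When vehicle replicate 1 was left out 7 genes were called higher and 16 lower, and the numbers were 81 and 21 for vehicle replicate 2, 0 and 2 for PM replicate 1, and 5 and 0 for PM replicate 2. Without vehicle replicate 1 the called members of the lists were Ly6c2 and the integrin Itga4, higher, and Crip1, S100a10, Vim and the cycling genes Mki67, Rrm1, Rrm2, Stmn1 and Top2a, lower. Of the lists, actin, calcium-binding and Crip1-type genes had 2 of 21 above 0 and a median of -0.90, with 16 below without overlap and 0 above, against 0.10 for the median of all genes and 18% higher and 22.2% lower without overlap. Homing and quiescence genes had 19 of 23 above 0 and a median of 0.44, and Il7r was at 0 and 315 CPM against 508 and 614 CPM. Heat shock genes had 10 of 11 above 0 and a median of 0.69. Interferon response genes had 19 of 27 above 0, with a median of 0.42. Over the same 6 alternatives the actin group ranged from -1.29 to -0.12, homing genes from 0.22 to 6.94 and heat shock genes from 0.52 to 1.81, while the median of all genes ranged from 0.03 to 1.29. The largest values were those without vehicle replicate 2, where a single Cd8a cell made up the vehicle side. The interferon list went from 1.12 without vehicle replicate 1 to 0.13 without the cells that had 20 or more neutrophil UMIs. It turned to -0.14 without PM replicate 2 and to -0.44, over 3 genes, without the cells that had more than 5 UMIs of S100a8 and S100a9, where the actin group was at -0.12 over 10 genes. With library size alone in place of edgeR's normalisation, the median of all genes in the Cd8a cells moved from 0.10 to -0.03, and 1 gene was called higher and 5 lower.

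In the naive Cd4 cells the vehicle side was 1 cell in 1 mouse and 3 in the other, and 511 genes could be tested. None was called (0%), 24 were higher and 23 lower at an unadjusted p under 0.05, and DESeq2 also called 0. Dusp1, a phosphatase that ends MAP kinase signals, was at 497 and 858 CPM in the vehicle mice against 21.5 and 155 CPM in the PM mice (-3.09, SE 0.75, edgeR adjusted p = 0.251). Ctla4 was at 1490.3 and 613 CPM against 43.1 and 174 CPM (-2.81, SE 0.70, edgeR adjusted p = 0.251). In UMIs these values were 3 and 5 against 4 and 9. The regulatory T cell check list, of which Ctla4 is itself a member beside Ikzf2, Il2ra and Foxp3, summed to 2484 and 2697 CPM in the vehicle Cd4 cells against 377 and 715 CPM in the PM mice, and Ikzf2 had 1 and 17 UMIs against 30 and 21. The part of such cells in the level of Ctla4 was not tested. Cd74 had none in the vehicle Cd4 cells and 79 and 46 UMIs in the PM mice, where all 46 came from 1 cell. The B cell check list summed to 0, 613, 2165 and 2299 CPM in the Cd4 cells of vehicle 1, vehicle 2, PM 1 and PM 2, and the dendritic list to 0, 0, 980 and 58.0 CPM. In PM replicate 1, Siglech, a receptor of plasmacytoid dendritic cells, had 50 UMIs in 2 of the 26 Cd4 cells and Irf8, a transcription factor of B and dendritic cells, 68 UMIs in 3. The part of these cell types in the level of Cd74 was not tested. Without vehicle replicate 2, 56 genes were called higher, and without PM replicate 2, 1 was called lower.

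The difference of the PM effect between naive Cd8a and naive Cd4 cells was tested directly, with the mouse as a block. Of 1620 genes tested, 0 were called with a higher PM effect in Cd8a than Cd4 cells (0%) and 3 with a lower one (0.185%). At an unadjusted edgeR p under 0.05, 8 had a higher effect and 75 a lower one. The median log2 difference over all genes tested was -0.40, so the comparison leaned lower as a whole. Itgb1 was at 2267 and 233 CPM in the vehicle and 83.3 and 62.4 CPM in the PM mice in Cd8a cells, against 0 and 613 CPM and 894 and 715 CPM in Cd4 cells. The log2 difference was -4.32 (SE 0.84, edgeR adjusted p = 0.000521). S100a4 (-3.85, SE 0.78) and Hmgb2, a chromatin protein high in cycling cells (-3.60, SE 0.73), had the same adjusted p. Single cells carried these sums: all 23 Itgb1 UMIs of vehicle replicate 1, 65 of the 66 S100a4 UMIs and 64 of the 107 Hmgb2 UMIs of vehicle replicate 2 in Cd8a cells came from 1 cell each. The Itgb1 difference ranged from -13.4 without vehicle replicate 2 to -2.86 without vehicle replicate 1, and was called only without vehicle replicate 2 among the 4 mice left out in turn. The S100a4 difference was -0.17 and not called without the cells that had 20 or more neutrophil UMIs, and that of Itgb1 was -3.68 (edgeR adjusted p = 0.0536), while Hmgb2 was called at -3.73. The only gated vehicle cell removed in that setting was a Cd8a cell, the deepest gated cell of vehicle replicate 2, so the part of neutrophil RNA in these values cannot be told from that of 1 deep cell. Without vehicle replicate 1, 1 gene was called, without vehicle replicate 2, 12, and with either PM mouse left out, 0.

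The PM effect in naive T cells was also set against that in the T cells outside the gate. Of 8392 genes tested, 15 were called with a higher PM effect in the naive cells than in the others (0.179%) and 3 with a lower one (0.0357%). The 3 with a lower effect were S100a10 (-1.89, SE 0.37, edgeR adjusted p = 0.000201), Ctla2a, an inhibitor of cathepsins (-2.23, SE 0.51, edgeR adjusted p = 0.00897), and Vim (-1.53, SE 0.37, edgeR adjusted p = 0.0172). S100a10 was at 326 and 562 CPM in the other T cells of the vehicle mice and at 405 and 365 CPM in those of the PM mice, where the naive cells were at 2077, 747, 286 and 175 CPM. Leaving out 1 mouse in turn gave S100a10 values from -2.86 to -1.07, Vim from -2.28 to -1.0 and Ctla2a from -3.19 to -1.73, and each was called only when vehicle replicate 2 was the mouse left out. Ctla2a had 11, 11, 24 and 6 UMIs in the naive cells of the 4 mice, and all 11 of vehicle replicate 1 were in 1 cell. Of the 15 with a higher effect, 14 were granule or other myeloid genes such as Ngp, Camp, Ltf, Lcn2, S100a8 and S100a9, and the last was Vapa, a membrane anchor of the endoplasmic reticulum. In the naive cells these followed PM replicate 1: Ngp was at 96.6 and 115 CPM in the vehicle mice against 1233 and 219 CPM in the PM mice. Without the cells that had 20 or more neutrophil UMIs, 0 genes were called higher and 2 lower. Leaving out a mouse gave 6 higher and 1 lower for vehicle replicate 1, 91 and 30 for vehicle replicate 2, 3 and 0 for PM replicate 1, and 13 and 0 for PM replicate 2.

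Against mature B cells, 4 of 8317 genes tested had a higher PM effect in naive T cells (0.0481%) and 6 a lower one (0.0721%). The genes with a lower effect again included S100a10 (-1.94, SE 0.41, edgeR adjusted p = 0.00811), with Ctla2a, S100a6, Nkg7 and the cycling genes Rrm2 and Hist1h2ap. The 4 with a higher effect were Atp1b1, a sodium pump subunit, Vapa, Lyz2 and Cd24a. For Atp1b1 (2.84, SE 0.58, edgeR adjusted p = 0.00678) the B cells were at 123 and 376 CPM in the vehicle mice and at 67.4 and 82.5 CPM after PM, where the naive T cells were at 48.3, 68.9, 118 and 67.3 CPM. The naive sums are shared between this comparison and the one above, so the return of S100a10 is not a second observation. No gene was called when PM replicate 1 was left out, and the count was 1 for PM replicate 2, 16 for vehicle replicate 1 and 44 for vehicle replicate 2.

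Variable genes of the T cell receptor were too rarely captured at the 3′ end to describe the repertoire. A Trbv gene was found in 10 of the 230 naive T cells, with 6 genes seen of 35 in the files, and the most frequent, Trbv19, was in 3 cells. A Trav gene was found in 11 cells, with 10 genes seen. No cell had more than 1 gene of either kind.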

How the data were processed

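Single-cell RNA-seq counts of bone marrow cells from 4 mice (2 vehicle, 2 PM) were used as deposited: UMI counts per gene and cell barcode, made by the authors with Cell Ranger 6.0.1 (per the file headers). The methods name the GRCm38 genome and the submitters' processing notes GRCm39, so no coordinates are given. The libraries had 9516, 8242, 13848 and 9787 barcodes. Cells were kept from 300 genes upward and up to 20% mitochondrial UMIs. Doublets were called with Scrublet (scanpy 1.11.5, threshold by Otsu's method because the automatic one marked 1 and 0 cells in 2 libraries) and left out only in an alternative. The gates were applied to raw counts. Other T cells met the Cd3 and neutrophil conditions outside the naive gate. Mature B cells had at least 2 UMIs of Cd79a, Cd79b and Ms4a1, Ighd and no Cd3, and mature neutrophils at least 5 of Mmp8, Mmp9 and Cxcr2 and no Cd3.

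Counts were summed per mouse and tested by the quasi-likelihood method of edgeR 4.0.16 in R 4.3.3 (robust, TMM factors, genes kept by filterByExpr), with limma 3.58.1 and with DESeq2 1.42.0 as an alternative; p-values were adjusted over all genes tested. Differences of PM effects were interaction terms with the mouse as a block. Shares were compared by the exact permutation test. The mouse, not the cell, was the replicate. The named genes were the gate and marker genes, called genes by size with at least 20 CPM and the 3 smallest p, genes the study names, the inhibited deacetylases, and abundant or called members of 19 gene lists (2 list genes were not used). Some named genes are not reported here. The steps were tested on simulated data. The members and lists were chosen with earlier results of these data known.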

Additional observations from a re-analysis of the deposited data

Results flagged for a closer look

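PM effects that differed between cell groups were picked out for a closer look because the difference itself passed the test. Between naive Cd8a and naive Cd4 cells 3 genes passed, Itgb1 (-4.32 on the log2 scale), S100a4 (-3.85) and Hmgb2 (-3.60), all with sums that 1 cell could decide. With 1 mouse left out in turn they ranged from -13.4 to -2.86, from -5.74 to -3.71 and from -4.08 to -3.92. S100a4 was at -0.17 and Itgb1 at -3.68 without the cells that had 20 or more neutrophil UMIs, and neither was then called. That setting also left out the deepest gated cell of vehicle replicate 2.

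Between naive and other T cells 18 genes passed. Among them Ctla2a differed by -2.23, S100a10 by -1.89 and Vim by -1.53 on the log2 scale, with the ranges over the mice left out in turn as given above. The neutrophil genes Lyz2, Chil3 and Ctsg had a higher PM effect in the naive cells than in the others, with edgeR adjusted p of 2.84e-06, 1.18e-05 and 4.83e-05. No fold is given for them, because the naive cells of the vehicle mice had 0 to 3 UMIs of each. Only in PM replicate 1 was the level of these genes higher in the naive cells than in the other T cells. There Lyz2 was at 809.5 against 748 CPM, Chil3 at 619 against 527 CPM and Ctsg at 277 against 114 CPM. In vehicle 1, vehicle 2 and PM 2, Lyz2 was at 0, 34.5 and 87.5 CPM in the naive cells against 375, 825 and 301 CPM. In PM replicate 1, 1 cell held 204 of the 424 Lyz2 UMIs, 1 held 265 of the 324 of Chil3 and 1 held 78 of the 145 of Ctsg. Without the cells that had 20 or more neutrophil UMIs neither Lyz2 nor Chil3 was called, and neither was Vim, at -1.27.

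Between naive T cells and mature B cells 10 genes passed. Ctla2a differed by -3.09, Hist1h2ap, a replication-dependent histone, by -2.50 and Rrm2, the small subunit of ribonucleotide reductase, by -2.21. Leaving out vehicle replicate 2 moved Ctla2a to -10.0, Hist1h2ap to -0.96 and Rrm2 to -0.06, and leaving out vehicle replicate 1 moved Ctla2a to -1.95. With either PM mouse left out, none of the 3 was called. Without the cells that had 20 or more neutrophil UMIs they were at -0.25, -2.05 and -1.50, and none was called. Lyz2, Vapa and Cd24a had a higher PM effect in the naive cells, with edgeR adjusted p of 0.0141, 0.0291 and 0.0293 and 0 to 3 UMIs of each in the naive cells of the vehicle mice.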

How the results depend on the processing

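With 2 mice a group, and 4 gated cells in 1 of the vehicle mice, the counts of calls were set by single mice and cells. Leaving out 1 mouse in turn gave 1 to 105 called genes in naive T cells, 0 to 56 in Cd4 cells and 2 to 102 in Cd8a cells, and 0 to 12, 3 to 121 and 0 to 44 genes whose PM effect differed between Cd8a and Cd4 cells, naive and other T cells, and naive T and mature B cells. The mouse that was alone in its group was then assumed to vary like the other group. The difference of the naive share of kept cells ranged from 0.645 to 0.858 percentage points, that of T cells from 10.9 to 19.7, and those of Cd4 and Cd8a cells from 2.49 to 3.69 and from 2.45 to 10.0. The Cd8a share of naive T cells ranged from -24.1 to 24.5 and also turned to -0.121 without called doublets and to -3.63 with at least 2 UMIs of Lef1 and Ccr7.

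Without a filter on low counts 19 genes were called in naive T cells and 12 in Cd8a cells, and restricting to genes that averaged 20 CPM or more gave 8 and 17, with 8 for Cd8a against Cd4 cells. Library size alone gave 1 in Cd4 and 6 in Cd8a cells, and at least 2 UMIs of Lef1 and Ccr7 gave 2 and 6. Without called doublets the comparison with mature B cells gave 6. Without the cells that had 20 or more neutrophil UMIs, Cd8a cells gave 2, Cd8a against Cd4 cells 1 and naive against other T cells 2. The cause of these changes was not tested.

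The replicate numbers did not mark shared litters or days in the labels, and deviations of mice with the same number correlated at -0.00092 over 3577 genes in naive T cells, -0.036 over 511 in Cd4 and -0.0047 over 2568 in Cd8a cells. The vehicle deviations rested on sums of 4 and 19 naive cells, and of fewer in the Cd4 and Cd8a cells. With so few cells, values near 0 cannot show whether mice with the same number shared a batch. With the replicate number as a block, 0, 0 and 7 genes were called, and the differences of shares were the same by construction.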
